A study of Mus musculus with 9 samples.

Results

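The cytosolic ribosomal protein genes were taken as all genes whose symbol is Rps or Rpl with a number, with or without a paralog suffix, together with Rplp0, Rplp1, Rplp2 and Rpsa, leaving out predicted pseudogenes. The rule found 84 of the 23361 genes in the table, 32 of the small and 52 of the large subunit. RNA was sequenced from sorted mouse skin cells labelled as melanocyte stem cells, in 3 groups of 3 libraries named Quiescent, Active and UVB. All mice were 10 weeks old and carried the genotype label TBPT, controls included, and the labels do not spell out its alleles or which cells they act in. Every library carries the same treatment note, which names chemical depilation and UVB irradiation as alternatives, so which mice were depilated is not stated. Nothing in the labels says whether replicates came from separate animals or pools, so p-values measure the spread between these libraries, which may be technical.

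Each ribosome is built from ribosomal RNA and about equal numbers of each ribosomal protein, and the proteins are consumed in the nucleolus as the subunits are assembled. Ribosomal protein mRNAs are among the most abundant in most cells, and most of them start with a stretch of pyrimidines, the terminal oligopyrimidine (TOP) motif, through which mTOR and LARP1 control their translation. In skin the family has a link to pigment: mutations of mouse Rps19 or Rps20 are known to darken it through p53 and Kit ligand. Melanocyte stem cells rest in the hair follicle and, once activated, divide and give rise to pigment cells.

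The libraries held 21045071 to 35131778 fragments. Sox10, the defining transcription factor of the melanocyte lineage, was near the floor in Quiescent, with 3.99, 2.2 and 0.295 CPM (counts per 1e6), against 551 to 660 in Active and 312 to 581 in UVB. None of the 10 lineage markers was at 0 in all libraries, and their summed level was 87.3 to 229 CPM in Quiescent, 7876 to 12730 in Active and 922 to 1152 in UVB. Mitf, the master regulator of pigment genes, had 47.3, 53.8 and 64.0 CPM in Quiescent and 23.8, 20.0 and 38.1 in UVB. Against Quiescent, 9 of the 10 markers had a log2 fold change above 0 in UVB. At an adjusted p under 0.05 (edgeR) 7 were called higher, where 25.8% of all genes tested were. The 12 dermal fibroblast markers, none at 0, summed to 341500 to 463100 CPM in Quiescent, 9821 to 11880 in Active and 30160 to 42190 in UVB. The 9 cell cycle markers summed to 131 to 142, 1673 to 2359 and 915 to 2533 CPM. Myeloid markers summed to 145 to 1553, 27.3 to 71.9 and 463 to 1009 CPM, Quiescent replicate 2 standing highest, and mast cell markers to 2.78 to 8.99, 5.19 to 10.2 and 56.7 to 112. T cell markers summed to 1.59 to 5.24, 2.25 to 3.77 and 13.4 to 20.0 CPM, and endothelial markers to 465 to 647, 218 to 300 and 464 to 485. Smooth muscle markers summed to 807 to 1105, 205 to 258 and 179 to 304 CPM, and keratinocyte markers to 135 to 2219, 754 to 1226 and 263 to 690, Quiescent replicate 1 standing highest. No marker of these lists was at 0 in all libraries, and their part in the results was not tested. Xist had 23353 to 30356 fragments in UVB libraries and 4 to 12 in the others, while 4 Y-linked genes together had 0 to 2 and 4106 to 5591. Labelled condition and cell markers therefore differed together in all comparisons, and sex-linked RNA also in those with UVB. These cannot be told apart, and neither can fewer cells of a type and less RNA per cell.

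To show start sites with and without a pyrimidine run, 30 bases around the annotated start are printed for 9 members described below, chosen after their values were seen, 15 before the start and 15 from it on, 5′ to 3′ on the coding strand, from RefSeq on GRCm38.p6. Capitals mark a run of at least 5 C or T that covers the start or lies within 5 bases of it.
Rps6: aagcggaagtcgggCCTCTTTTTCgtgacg
Rpl38: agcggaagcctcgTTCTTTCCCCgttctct
Rpl27: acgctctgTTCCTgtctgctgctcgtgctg
Rps19: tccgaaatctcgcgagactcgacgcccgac
Rps16: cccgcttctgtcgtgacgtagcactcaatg
Rpsa: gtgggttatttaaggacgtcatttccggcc
Rpl10: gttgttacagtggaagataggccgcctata
Rpl39: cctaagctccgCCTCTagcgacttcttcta
Rpl39l: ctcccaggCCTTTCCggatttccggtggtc
These windows lie at chr4:86857353-86857382 on the minus strand (Rps6), chr11:114668565-114668594 (Rpl38), chr11:101442230-101442259 (Rpl27), chr7:24884577-24884606 (Rps19, the most upstream of 3 starts), chr7:28350674-28350703 (Rps16), chr9:120127751-120127780 (Rpsa), chrX:74270801-74270830 (Rpl10), chrX:37085208-37085237 on the minus strand (Rpl39) and chr16:10170213-10170242 (Rpl39l). Each spans the boundary of promoter and 5′ UTR. In Rps6 and Rpl38 the run has 10 bases and covers the start, whereas Rps19, Rps16, Rpsa and Rpl10 have no such run in this window. Annotated starts of the same member can differ in the run, as those of Rps21 do. Whether the annotated starts are the ones used in these cells was not tested, so a window without a run does not show that the mRNA lacks the TOP motif.

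Of the 84 members, 64 matched the RefSeq promoter table, with 76 promoters, 10 of the members having more than 1. A pyrimidine run of this kind was found at 48.7% of the 76 promoters and at 32.9% of all 32851, and a run that covers the start at 26.3% and 10.1%. The start base was C at 28.9% of member promoters and 16.3% of all. In the 300 bases from 250 before to 50 after the start, on both strands, CCGGAAGT (an ETS-type motif) was found in 15.8% of member promoters against 3.9% of all, and AAGATGGC (part of the YY1 motif) in 10.5% against 2.7%. The E-box CACGTG stood in 10.5% against 7.2%, and TATAAA in 9.2% against 13.6%. No motif contains another of these 4, and a match is a description of the letters only.

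Levels of different genes were compared as FPKM, fragments per kilobase of transcript and 1e6 fragments, as the authors computed it. Rpl41, which encodes the shortest ribosomal protein, and Rplp1, an acidic protein of the ribosomal stalk, stood highest. Rpl41 reached 3045 ± 501 FPKM in Quiescent, 3171 ± 400 in Active and 2108 ± 274 in UVB (SD, n = 3 each). Rplp1 had 3060 ± 242, 2802 ± 264 and 2162 ± 256. Over all libraries the next 4 were Rps12, Rpl38, Rps14 and Rps29, with mean FPKM of 1858 to 2171. The lowest of the 82 members that passed the filter on low counts were Rps15a, Rps27, Rpl30, Rpl7l1, Rpl39l and Rpl26, at 64.2 to 1.43 FPKM. Rps15a is listed with a transcript of 5179 bases in GENCODE, Rpl30 and Rpl26 had fragments divided with near-identical copies, and Rps27 had fragment numbers that were not whole, so these 4 values are uncertain. The muscle paralog Rpl3l had at most 8 fragments in a library, and the germ-cell paralog Rpl10l had 0 in 8 libraries and 1 in the ninth. A count of 0 allows up to 3 fragments, which covers counting error only.

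The family took a larger share of fragments in Active than in Quiescent libraries, and after TMM scaling its level was lower in UVB than in either, though above Quiescent with library size alone. The 84 genes held 3.31%, 3.31% and 3.16% of fragments in Quiescent, 5.61%, 5.72% and 5.07% in Active, while UVB had 4.07%, 3.59% and 4.81%. The group means were 3.26% ± 0.0862, 5.47% ± 0.351 and 4.15% ± 0.612 (SD, n = 3 each), and no 2 groups overlapped. Each pairwise difference had p = 0.1 in a two-sided exact permutation test, the smallest value 3 against 3 can give. Col1a1, Col1a2 and Col3a1, the fibrillar collagens of fibroblasts, took 23.2% to 27.7% of all fragments in Quiescent, 0.549% to 0.698% in Active and 2.45% to 3.49% in UVB. With these left out of the total, the family's share was 4.49%, 4.31% and 4.37% in Quiescent, 5.65%, 5.76% and 5.10% in Active, and 4.2%, 3.68% and 4.98% in UVB. Active then stood 1.25 times above Quiescent instead of 1.68 times (exact permutation p = 0.1). UVB overlapped Quiescent (ratio 0.976, exact permutation p = 0.7) instead of standing 1.27 times above it.

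**Figure D1:**
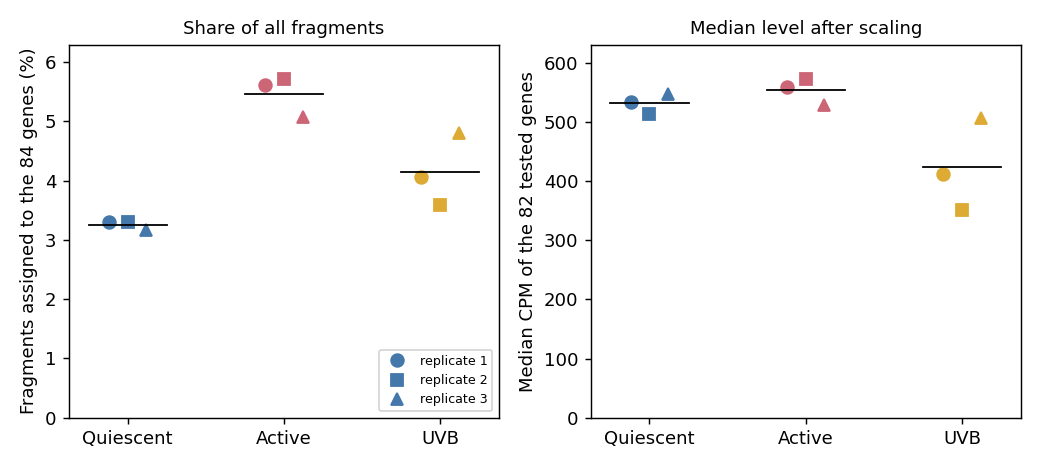
Family level in each library: the left axis is the percentage of fragments assigned to the 84 genes, the right axis the median CPM of the 82 tested genes after TMM scaling; points are libraries and lines are means of 3. The Quiescent and Active libraries are apart on the left and overlap on the right, and UVB replicate 2 is the lowest UVB library in both.

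Fold changes were taken after trimmed-mean (TMM) scaling, which sets the bulk of all genes level between libraries. On this scale the median member stood at 534, 514 and 547 CPM in Quiescent, 560, 573 and 529 in Active, and 412, 351 and 506 in UVB. Quiescent and Active overlapped. All 3 UVB libraries were below both groups, UVB replicate 2 the most and UVB replicate 3 by little. UVB replicate 2 also had the highest cell cycle marker sum of its group (2533 CPM) and replicate 3 the lowest (915 CPM). UVB replicate 3 had the highest fibroblast, endothelial, smooth muscle, myeloid (1009 CPM), mast cell (112 CPM) and melanocyte lineage sums of its group. Its T cell sum was the lowest (13.4 CPM), and the keratinocyte sum was highest in UVB replicate 1. The part of these in the result was not tested.

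Between Active and Quiescent, most ribosomal protein genes did not pass the test in either direction. Of 82 tested, 7 were higher and 5 lower in Active at an adjusted p under 0.05, where 29.1% and 29.2% of all 15078 genes were called higher and lower (edgeR quasi-likelihood test, Benjamini-Hochberg). The median log2 fold change was 0.03, beside 0.01 over all genes. With library size as the only scaling, 75 members were higher and 1 lower, where 8651 and 2208 of all 15078 genes were called. The median moved to 0.78, along with that of all genes to 0.76. The libraries of the groups did not overlap for 21 members above and 20 below, where 33.5% and 32.7% of all genes were so placed. The count of 7 higher fell to 4 without Quiescent replicate 1 and to 3 without Active replicate 2. The count of 5 lower was 2 without Active replicate 1 or 2, 3 without Active replicate 3 or Quiescent replicate 3, and 8 without UVB replicate 2 or 3.

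Rps27l, a paralog of Rps27 and a p53 target gene, rose most in Active. It had 64.6, 56.8 and 79.1 CPM in Quiescent and 141, 161 and 130 in Active, all Active libraries being higher. The log2 fold change was 1.11 ± 0.14 (SE; edgeR adjusted p = 0.00022). Rps19, a small-subunit protein mutated in Diamond-Blackfan anaemia, had 395, 361 and 366 CPM in Quiescent and 531, 569 and 507 in Active, with no overlap. Its log2 fold change was 0.52 ± 0.12 (edgeR adjusted p = 0.0045). The calls of Rps27l and Rps19 were kept whichever of the 9 libraries was left out.

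Rpl27, another gene of that anaemia, was higher by 0.42 ± 0.10 in log2 (edgeR adjusted p = 0.0071) and kept its call in all 9 of these fits. Rpsa, the laminin receptor precursor that is also a small-subunit protein, had 1016, 941 and 914 CPM in Quiescent and 1262, 1414 and 1170 in Active. The groups did not overlap, and the log2 fold change was 0.42 ± 0.12 (edgeR adjusted p = 0.017, but 0.073 without Active replicate 2). Rps16 was higher by 0.39 ± 0.12 in log2 (edgeR adjusted p = 0.019), a call lost without Quiescent replicate 1 (0.059) or Active replicate 2 (0.08). The remaining 2 of the 7, Rpl14 and Rpl18, are named only to complete the count.

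Rpl39l fell furthest, and its values are given with the paralogs. Rpl38, a small large-subunit protein known for its part in the translation of Hox mRNAs in embryos, had 258, 261 and 290 CPM in Quiescent and 185, 185 and 159 in Active. Every Active library was lower, with a log2 fold change of -0.61 ± 0.14 (edgeR adjusted p = 0.0056), and the call was kept in all 9 fits. With library size alone its value was 0.14, on the other side of 0. Rpl10, which joins the large subunit last and is X-linked, had 960, 1054 and 1173 CPM in Quiescent and 733, 747 and 737 in Active. Its log2 fold change was -0.52 ± 0.15 (edgeR adjusted p = 0.017), which became 0.054 and 0.052 without Active replicates 1 and 2, and its value was 0.23 with library size alone. Rps3a1, a small-subunit protein, was lower by -0.39 ± 0.15 in log2 (edgeR adjusted p = 0.048). Its call was kept only without UVB replicate 2 or 3, the other 7 fits giving 0.067 to 0.12, and its value was 0.37 with library size alone. The fifth call, Rps27, rests on divided fragments.

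Among the members that serve as landmarks of the ribosome, Rpsa, Rps19, Rpl10 and Rpl38 passed the test, as given above. Rplp0, Rps6, Rpl11 and Rpl5 did not. Rplp0, the base of the stalk, had 1265, 1124 and 1227 CPM in Quiescent and 1286, 1359 and 1291 in Active, with a log2 fold change of 0.12 ± 0.13 (edgeR adjusted p = 0.46). Rps6, the small-subunit protein phosphorylated downstream of mTOR, had 788, 794 and 901 CPM against 797, 848 and 760. Rpl11, which with Rpl5 binds Mdm2 when assembly fails, had 534, 510 and 551 CPM against 558, 579 and 523. Rpl5 stood at 1028, 983 and 1128 CPM in Quiescent and 828, 836 and 799 in Active. All its Active libraries were lower, at a log2 fold change of -0.35 ± 0.14 (edgeR adjusted p = 0.062), and it had 0.40 with library size alone.

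Ribosomal protein genes were lower in UVB than in Quiescent on the TMM scale, but higher with library size as the only scaling. No member was higher and 40 of 82 were lower (none was higher at an unadjusted p under 0.05 or by DESeq2 either), where 25.8% and 23.2% of all genes tested were called higher and lower (edgeR). The median log2 fold change was -0.38, a ratio of 0.769, beside 0.02 over all genes. Over the 32 small-subunit members 19 were lower and over the 50 large-subunit members tested 21. The UVB libraries were all below the Quiescent ones for 54 members and all above for none, where 27.4% and 30.2% of all genes were below and above. With library size alone 40 members were higher and 2 lower, where 8746 and 1247 of all 15078 genes were called higher and lower. The median was 0.35, still under the 0.74 of all genes. The count of 40 was 26 without Quiescent replicate 1, 23 without Quiescent replicate 3, 16 without UVB replicate 1 and 20 without UVB replicate 2, and the median stayed between -0.50 and -0.27 in all 9 such fits.

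Among core members with whole counts, Rpl38, Rps21 and Rpl10 fell most. Rpl38 had 140, 118 and 169 CPM in UVB, all below Quiescent, and a log2 fold change of -0.93 ± 0.14 (edgeR adjusted p = 0.00093). Rps21, a small-subunit protein, had 340, 348 and 355 CPM in Quiescent and 207, 168 and 256 in UVB, with -0.73 ± 0.16 (edgeR adjusted p = 0.005). Rpl10 had 628, 531 and 775 CPM in UVB and a log2 fold change of -0.72 ± 0.16 (edgeR adjusted p = 0.0049). The libraries of the groups did not overlap for any of these 3 genes. Rps3a1 (-0.70 ± 0.15), Rps28 (-0.68 ± 0.16) and Rpl5 (-0.66 ± 0.14) also fell. These 6 calls were kept in all 9 fits that left out a library. With library size alone Rpl38 was at -0.20, Rps21 at 0 and the other 4 between 0.01 and 0.07.

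Among the landmark genes, Rplp1 had 842, 789 and 914 CPM in Quiescent and 619, 520 and 689 in UVB, with a log2 fold change of -0.48 ± 0.14 (edgeR adjusted p = 0.02). That p rose to 0.053, 0.059 and 0.061 without Quiescent replicate 3, UVB replicate 1 and UVB replicate 2, and the value was 0.25 with library size alone. Rps6 (620, 565 and 721 CPM in UVB) and Rpl11 (408, 364 and 473 CPM) were lower by 0.38 and 0.36 in log2, at edgeR adjusted p of 0.037 and 0.038. Rplp0 (1017, 864 and 1146 CPM in UVB) and Rplp2 (269, 230 and 294 CPM) did not pass, at 0.14 and 0.063. Rpsa (985, 913 and 1040 CPM in UVB) and Rps19 (397, 338 and 416 CPM) overlapped Quiescent, with log2 fold changes of 0.03 ± 0.12 and 0.04 ± 0.12.

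The 4 X-linked members with a call were Rpl10, Rpl39, Rps4x and Rpl36a, and UVB was the group with Xist. Rpl39, at the peptide exit tunnel, had 360, 348 and 421 CPM in Quiescent and 231, 193 and 289 in UVB, with -0.67 ± 0.16 in log2 (edgeR adjusted p = 0.0094). Rps4x had 1261, 1284 and 1318 CPM in Quiescent and 942, 802 and 1150 in UVB (-0.42 ± 0.15, edgeR adjusted p = 0.043). Rpl36a had 200, 205 and 212 CPM against 154, 134 and 186 (-0.38 ± 0.13, edgeR adjusted p = 0.041). The groups did not overlap for any of them. The calls of Rps4x, Rpl36a, Rps6 and Rpl11 were lost without any 1 Quiescent library, without Active replicate 1 or 2, or without UVB replicate 1 or 2 (adjusted p of 0.054 to 0.13). With library size alone these 4 and Rpl39 lay between 0.06 and 0.37.

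In UVB against Active, 1 member was higher, Rpl39l, and 24 of 82 were lower, where 14.8% and 9.19% of all genes were called higher and lower (edgeR). The median log2 fold change was -0.39, a ratio of 0.765, beside 0.01 over all genes, and with library size alone it was -0.42. The UVB libraries were all below the Active ones for 61 members and all above for 1, where 21.7% and 25% of all genes were so placed. The count of 24 rested on single libraries: it was 2 without Active replicate 1, 1 without Active replicate 2, 13 without Quiescent replicate 1, 2 without UVB replicate 1, 5 without UVB replicate 2 and 59 without UVB replicate 3. The median stayed between -0.50 and -0.28 in all 9 fits.

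Rps27l fell most in this comparison among members with whole counts, from 141, 161 and 130 CPM in Active to 75.5, 84.1 and 71.8 in UVB. The groups did not overlap, and the log2 fold change was -0.90 ± 0.14 (edgeR adjusted p = 0.0041 and at most 0.021 with any library left out). Rpl22l1, a paralog of Rpl22, had 92.0, 105 and 86.9 CPM in Active and 55.3, 55.8 and 73.9 in UVB, a change of -0.62 ± 0.17 (edgeR adjusted p = 0.031). Rpl41 went from 830, 911 and 719 CPM to 546, 471 and 638 (-0.57 ± 0.17, edgeR adjusted p = 0.041). Rpl36, a large-subunit protein, went from 282, 263 and 256 CPM to 188, 156 and 222 (-0.50 ± 0.13, edgeR adjusted p = 0.028). Rps19 and Rpl27 were lower by 0.48 and 0.42 in log2, at edgeR adjusted p of 0.02 and 0.021. Without Active replicate 1, Active replicate 2 or UVB replicate 1 the calls of these last 5 genes were lost (adjusted p of 0.059 to 0.14). Without UVB replicate 2 they were lost in all but Rps19 (0.051 to 0.10), and without Quiescent replicate 1 in Rpl41 (0.058).

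**Figure D2:**
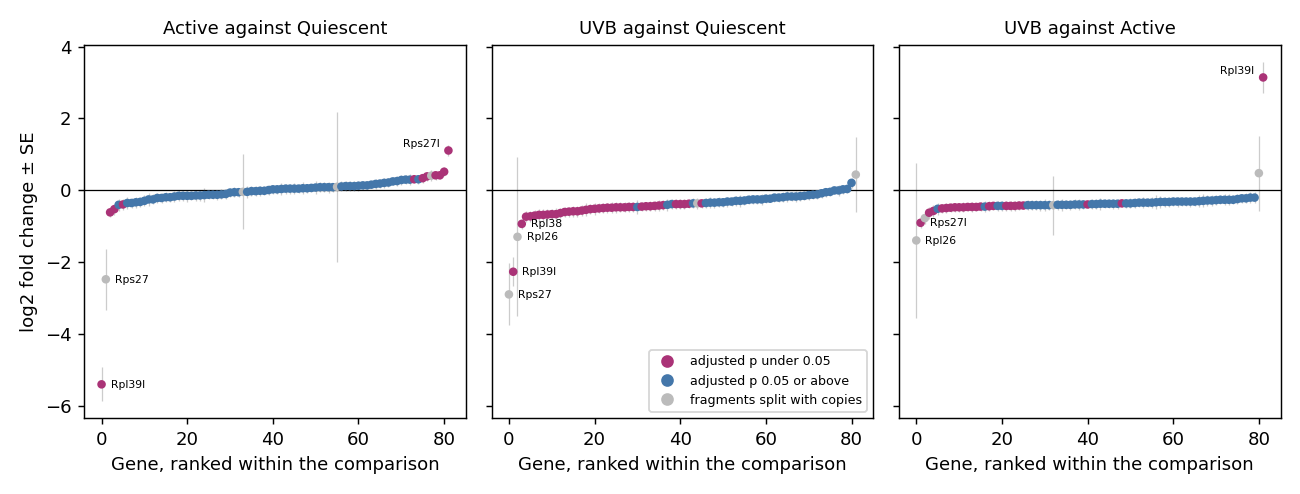
Log2 fold change (TMM scale) ± SE of the 82 tested genes in each comparison, ranked; colour marks the adjusted p and grey the 4 genes with divided fragments. The genes form a flat band near 0.03 for Active against Quiescent and near -0.38 and -0.39 for the UVB comparisons. Among genes with whole counts, Rpl39l and Rps27l are the extremes in each comparison, and grey genes, Rps27 among them, also lie outside the band. With library size alone the first 2 medians were 0.78 and 0.35.

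To see which members departed from the rest, libraries were scaled on the ribosomal protein genes alone and all genes were tested again, so that 0 stands for the typical member. Active against Quiescent, 7 members were above the family and 9 below, where 25.1% and 27.2% of all genes were above and below (edgeR). UVB against Quiescent, 6 were above and 6 below, where the shares were 39.0% and 12.6%. UVB against Active, 1 was above, Rpl39l, and none below, where the shares were 30% and 1.75%. In that last comparison 1 member was below at an unadjusted p under 0.05 and 0 with DESeq2 size factors over the members. None was below with any library left out except UVB replicate 2, without which 1 was. The median over all genes on this scale was 0.01 in Active and 0.419 in UVB against Quiescent, and 0.415 in UVB against Active. The shares of all genes in the UVB comparisons include this shift and are no background rate for departures within the family.

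Rpl38 was below the family in both comparisons with Quiescent, by -0.61 ± 0.12 in Active and -0.54 ± 0.12 in UVB (edgeR adjusted p = 0.0019 and 0.0041), whichever library was left out. Rpl10 was below by -0.52 ± 0.12 in Active (edgeR adjusted p = 0.0065) in every such fit. In UVB it was at -0.34 ± 0.12 (edgeR adjusted p = 0.044), a call kept in only 1 of the 9 fits. Rps19 was above by 0.52 ± 0.13 in Active (edgeR adjusted p = 0.0067) in every such fit. In UVB it was at 0.43 ± 0.12 (edgeR adjusted p = 0.017), and this call was lost without Quiescent replicate 2 or 3 or UVB replicate 1 (up to 0.075). Rps27l was above by 1.11 ± 0.19 in Active and 0.63 ± 0.18 in UVB. The first call was kept in every fit and the second was lost without Quiescent replicate 1 or 2 (up to 0.061). The 2 comparisons share the Quiescent libraries, so their likeness is no independent evidence.

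Rpsa (0.42 and 0.43), Rpl27 (0.42 and 0.39) and Rps16 (0.39 and 0.35) were above in both comparisons, and Rps3a1 (-0.38 and -0.32) and Rps21 (-0.33 and -0.35) below in both. Each of these calls was lost without at least 1 of the Quiescent libraries. The counts moved with single libraries too. The 7 above in Active became 2 to 4 without any 1 Quiescent or Active library or UVB replicate 1. The 9 below became 3 or 4 without Quiescent replicate 2 or 3 or any Active library. The 6 above in UVB became 0 to 3 without any 1 Quiescent library or UVB replicate 1 or 2, and the 6 below became 2 or 3 without any library other than UVB replicate 3. Over the 73 members that are neither paralogs nor divided, the departure had a Pearson correlation with the GC content of the transcript of 0.32 in Active and 0.28 in UVB against Quiescent and -0.21 in UVB against Active, and of -0.03 with its length in Active. These are descriptions across genes, which share libraries and are not independent.

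**Figure D3:**
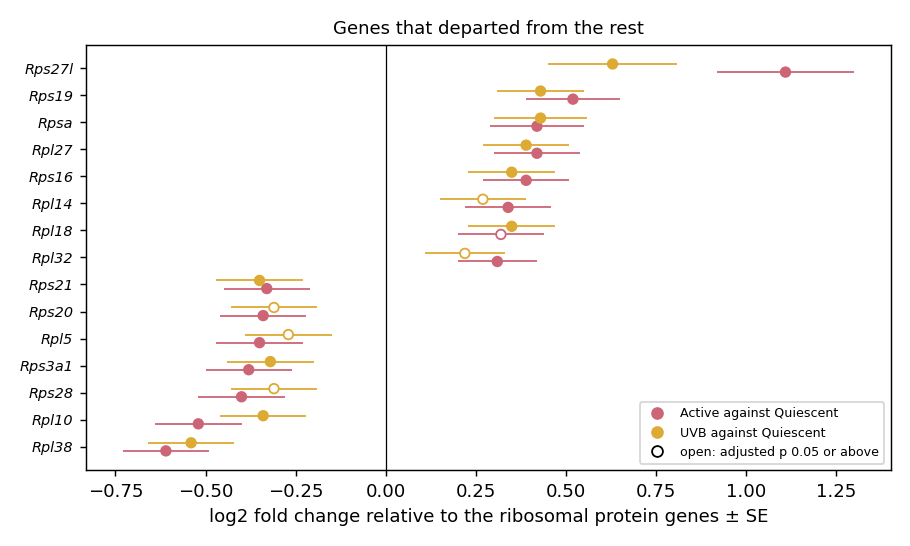
Log2 fold change ± SE relative to the ribosomal protein genes for the members that departed in either comparison with Quiescent, leaving out Rpl39l and the genes with divided fragments; open circles did not pass the test. Rps27l lies furthest to the right, at 1.11 in Active and 0.63 in UVB, and Rpl38 furthest to the left, at -0.61 and -0.54.

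Of the paralogs, Rpl39l changed in all 3 comparisons. Rpl39l, a copy of Rpl39 known from male germ cells and the member with the widest range among those tested with whole counts, had 31.2, 31.2 and 42.7 CPM in Quiescent, 0.779, 0.653 and 1.06 in Active, while UVB had 5.48, 4.04 and 12.4. The 3 groups did not overlap. Its log2 fold change was -5.39 ± 0.47 in Active and -2.26 ± 0.40 in UVB against Quiescent, and 3.14 ± 0.44 in UVB against Active (edgeR adjusted p = 2.7e-05, 0.0018 and 0.0026). Each call was kept whichever library was left out. For every 100 fragments of Rpl39 there were 8.65, 8.95 and 10.1 of Rpl39l in Quiescent, 0.229, 0.175 and 0.348 in Active, and 2.37, 2.10 and 4.31 in UVB, uncorrected for length. The fibroblast marker sum had the same order of groups, and the melanocyte lineage sum the reverse order. Endothelial and myeloid sums were also lowest in Active, with Quiescent and UVB overlapping. The part of any of these in the result was not tested.

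Rps27l, Rpl22l1, Rpl36al and Rpl7l1 covered smaller ranges. In UVB against Quiescent Rps27l had a log2 fold change of 0.21 ± 0.14 (edgeR adjusted p = 0.26). Rpl22l1 had 85.4, 86.5 and 120 CPM in Quiescent. Against these its log2 fold change was -0.04 ± 0.17 in Active and -0.66 ± 0.17 in UVB (edgeR adjusted p = 0.87 and 0.012), the latter 0.051 without UVB replicate 1, and both values were above 0 with library size alone (0.73 and 0.08). Its fragments per 100 of Rpl22 averaged 32.3 ± 6.54, 31.6 ± 2.44 and 28 ± 2.45 in Quiescent, Active and UVB (SD, n = 3 each), and the groups overlapped. Those of Rpl36al per 100 of Rpl36a averaged 45.9 ± 8.93, 55.7 ± 2.14 and 60.6 ± 5.81, again with overlap. Those of Rpl7l1 per 100 of Rpl7 were 7.53, 6.84 and 7.75 in Quiescent, 10.4, 10.2 and 9.22 in Active, while UVB had 8.65, 12.5 and 8.03. The Active and UVB libraries were all above the Quiescent ones (exact permutation p = 0.1 each, the smallest possible).

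**Figure D4:**
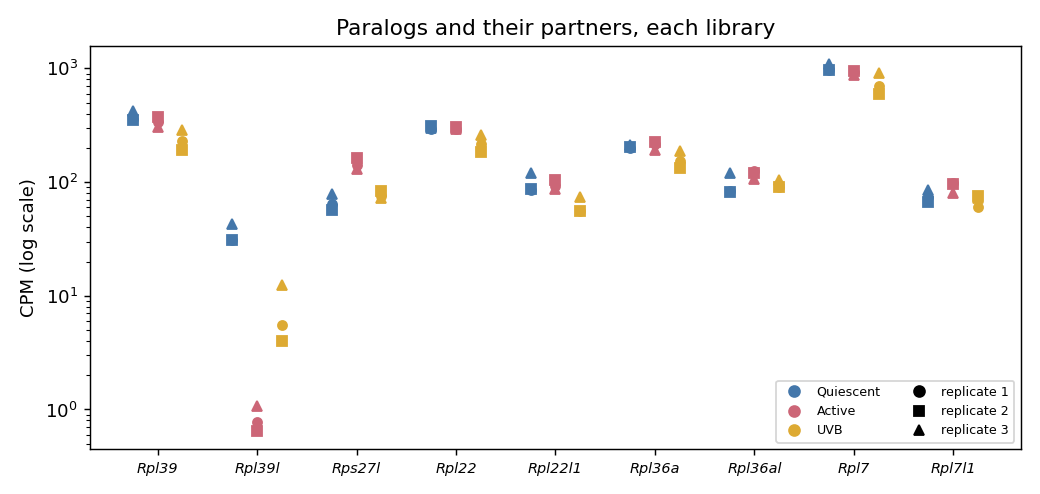
CPM on a log axis for 5 paralogs and 4 of their partners in each library; colour is the group and shape the replicate. Rpl39l falls from 31.2 to 42.7 CPM in Quiescent to 0.653 to 1.06 in Active, while Rpl39 covers 193 to 421 CPM in all 9 libraries.

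In 4 members, Rpl26, Rpl30, Rpl34 and Rps27, the fragment numbers were not whole, which marks fragments divided between genes by the counting model. In the GENCODE M21 transcripts, 45.7% of the 50-base words of Rpl26 occur in Gm15772, 29.7% of those of Rpl30 in Gm12191 and 37.9% of those of Rpl34 in Rpl34-ps1. For Rps27 no gene of the table that shares such a word was found, so what its fragments were divided with is unknown. Rpl34 was given 79.8%, 28.1% and 2.51% of the pair's fragments in Quiescent, 56.1%, 4.79% and 63.4% in Active, while UVB had 79.1%, 77.5% and 68.1%. The division thus varied widely between libraries of 1 group in Quiescent and Active. Rpl26 received at most 0.443% of its pair's fragments, so its listed level says little about the gene.

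With each pair summed, Rpl34 and Rpl34-ps1 had a log2 fold change of -0.64 ± 0.14 in UVB against Quiescent (edgeR adjusted p = 0.0057), where Rpl34 alone had 0.44 ± 1.04 (0.75). Rpl26 and its copy had -0.56 ± 0.16 (edgeR adjusted p = 0.021), where Rpl26 alone had -1.29 ± 2.21 (0.65). Rpl30 was lower in UVB than in Active on its own (-0.77 ± 0.16, edgeR adjusted p = 0.012) and by -0.42 ± 0.13 (0.05) with its copy. Rps27 had 2.93, 12.9 and 49.5 CPM in Quiescent, 2.74, 5.37 and 3.64 in Active, while UVB had 3.97, 1.88 and 2.94. The groups overlap, the calls in Active (-2.47 ± 0.84, edgeR adjusted p = 0.031) and UVB (-2.89 ± 0.86, 0.021) were lost without Quiescent replicate 3 (0.19 and 0.089), and both stand as uncertain. The Active call was also lost without any 1 Active library (0.058 to 0.098), and the UVB call without UVB replicate 2 or 3 (0.073 and 0.053). In all, 11 members share at least 10% of these words with another gene in the table, and for 4 of them that gene had over 1000 fragments in every library. Rpl22l1 shares 56.5% with Gm15421, which had 18 to 52 fragments, and Rps19 shares 12.8% with Rps19-ps3, which had 5 to 16 fragments.

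Genes that build ribosomes were higher in both Active and UVB than in Quiescent for most of the list, under each scaling used. Of 51 ribosome biogenesis genes, 39 had a higher level in Active than in Quiescent and 1 a lower one (median log2 fold change 0.71). Against Quiescent, UVB had 35 higher and 2 lower (0.47). Over all genes tested, 29.1% and 29.2% were called higher and lower in Active and 25.8% and 23.2% in UVB, against Quiescent. In UVB against Active the shares were 14.8% and 9.19%. Heatr1, a factor of the early small-subunit precursor, rose by 1.27 ± 0.11 and 1.1 ± 0.11 (edgeR adjusted p = 3.1e-05 and 0.00012). Rrs1, needed for large-subunit assembly, rose by 1.41 ± 0.13 and 1.08 ± 0.13 (edgeR adjusted p = 3.4e-05 and 0.00025). In UVB against Active 0 were higher and 6 lower, Bop1, of the PeBoW complex, among them (-0.48 ± 0.12, edgeR adjusted p = 0.026). Of 15 genes of RNA polymerase I, which transcribes ribosomal RNA, Active had 6 higher and 0 lower, and UVB 5 higher and 2 lower, against Quiescent, with 1 lower in Active at an unadjusted p under 0.05 and by DESeq2. Polr1a, its largest subunit, stood at 11.8, 40.2 and 40.1 CPM on average in Quiescent, Active and UVB and rose by 1.76 ± 0.14 in both.

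The next list joined elongation factors with other genes whose mRNAs carry the TOP motif. Of 19, Active had 5 higher and 2 lower against Quiescent, and UVB had 2 higher and 5 lower. The shares over all genes were 29.1% and 29.2% in Active and 25.8% and 23.2% in UVB. In UVB against Active 0 were higher and 7 lower, beside 14.8% and 9.19% of all genes. There 1 was higher at an unadjusted p under 0.05 and by DESeq2. The same shares apply to the initiation factors below. Against Quiescent, Eef1b2, an elongation factor subunit, fell in UVB by 0.92 in log2 (edgeR adjusted p = 0.0048). Tpt1, an abundant TOP mRNA, fell by 0.80 in the same comparison (edgeR adjusted p = 0.0069). Scaled by library size alone, these were -0.19 and -0.07 and did not pass (edgeR adjusted p = 0.38 and 0.74). Eef1a1 averaged 8062, 8219 and 6323 CPM and passed the test in no comparison. Of 29 initiation factors Active had 20 higher and 2 lower, and UVB 8 higher and 2 lower, against Quiescent, led in Active by Eif2b2 (1.21 ± 0.10, edgeR adjusted p = 1.8e-05). In UVB against Active 3 were higher and 8 lower.

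The medians of the 76 mitochondrial ribosomal protein genes were 0.50 in Active and 0.06 in UVB against Quiescent, and -0.46 in UVB against Active. Of these genes 46 were higher and 1 lower, 8 higher and 13 lower, and 0 higher and 44 lower. The shares over all genes were 29.1% and 29.2%, 25.8% and 23.2%, and 14.8% and 9.19%. Under library size alone the counts against Quiescent were 75 higher and 0 lower in Active and 65 higher and 0 lower in UVB. The 31 proteasome genes had 28 higher and 0 lower, 10 higher and 2 lower, and 0 higher and 18 lower. Under library size alone 31 of them were higher in Active and 30 in UVB than in Quiescent, and 0 lower. On the TMM scale the zeros of the biogenesis, proteasome and mitochondrial lists were also 0 at an unadjusted p under 0.05 and by DESeq2. Fau and Gnb2l1 (now called Rack1), genes of ribosome parts that the symbol rule leaves out, passed the test in no comparison. With library size alone every list's median against Quiescent moved up with that of all genes (0.76 in Active, 0.74 in UVB). The elongation and TOP list then turned from -0.16 to 0.57 in UVB, and the list of regulators from -0.04 to 0.70 in Active.

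Among 25 regulators of ribosomal protein synthesis, the test against Quiescent found 4 higher and 4 lower for Active and 6 higher and 5 lower for UVB, where 29.1%, 29.2%, 25.8% and 23.2% of all genes were called, and in UVB against Active none passed (1 each way at an unadjusted p under 0.05, 0 by DESeq2). Mycn, a transcription factor of the Myc family, averaged 0.985 CPM in Quiescent, 21 in Active and 16.9 in UVB, and rose by 4.39 ± 0.44 and 4.08 ± 0.44 (edgeR adjusted p = 5.3e-05 and 0.00014). Myc averaged 44.7, 51.5 and 48.8 CPM and passed the test in no comparison. Mtor, the kinase that controls TOP translation, rose by 0.63 ± 0.11 and 0.69 ± 0.11 (edgeR adjusted p = 0.0011 in both). Eif4ebp1, a repressor of translation that mTOR inactivates, fell by 1.01 and 1 (edgeR adjusted p = 0.0011 and 0.0017). Scaled by library size alone, its values were -0.25 ± 0.16 and -0.26 ± 0.16 and neither passed (edgeR adjusted p = 0.19 and 0.18).

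**Figure D5:**
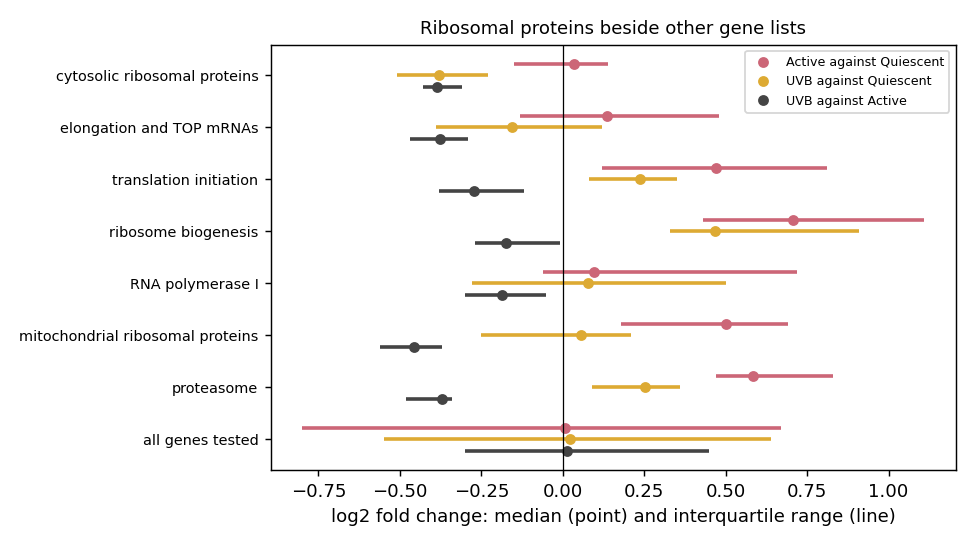
Median log2 fold change (points, TMM scale) and interquartile range of the genes (lines) of each list in the 3 comparisons. The cytosolic ribosomal proteins lie at 0.03, -0.38 and -0.39 while ribosome biogenesis lies at 0.71, 0.47 and -0.18; with library size alone the first 2 values of each are 0.78 and 0.35, and 1.46 and 1.18.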

How the data were processed

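Libraries were poly(A) selected with a directional kit, per the labels' protocols. The submitters' processing notes name cutadapt 1.8, TopHat2 2.0.13, Cuffdiff 2.2.1 and mm10. Annotation and strandedness: not given in the sources used here, and antisense overlap cannot be judged. The authors deposited estimated counts and FPKM per gene and library, per the file headers; 1.08% of the counts were not whole to within 1e-06, since Cuffdiff divides fragments between near-identical genes. Rounded values entered a quasi-likelihood test (edgeR 4.0.16, R 4.3.3; TMM factors, 1 fit of 9 libraries; filterByExpr kept 15078 genes), adjusted by Benjamini-Hochberg over all of them at 0.05, two-sided. An SE is the log2 fold change over the square root of F. CPM uses the TMM-scaled library size. The fit relative to the family computed TMM over its members. Alternatives used DESeq2 1.42.0, limma 3.58.1 on log2 FPKM and other scalings and filters. Shared sequence was counted in 50-base words. The fits were tested on simulated data drawn from a common mean profile. These lack the difference in composition between the groups, so they do not test the choice of scaling. The members and lists were chosen with earlier results of these data known. Named genes were the landmark, X-linked and paralog members, the 5 largest changes each way, and up to 4 per list with the smallest adjusted p; others are marked. Leaving out libraries from the fit relative to the family, gene by gene, and summing pairs were chosen after seeing the data. 1 companion gene outside the symbol rule is not reported here.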

Additional observations from a re-analysis of the deposited data

How the results depend on the processing

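Precision was limited by the 3 replicates a group and, against Quiescent, by the choice of scaling. With library size as the only scaling, Active against Quiescent had 75 members higher, 1 lower and a median of 0.78. UVB against Quiescent had 40 higher, 2 lower and 0.35, and UVB against Active 37 lower. Of all 15078 genes, 8651 and 2208 were then higher and lower in Active and 8746 and 1247 in UVB against Quiescent. In UVB against Active 1535 were lower. The log2 fold change then changed sign for 37 of 82 members in Active and 72 in UVB against Quiescent, and for 0 in UVB against Active. Among them were Rpl10 (0.23), Rpl22l1 (0.73), Rpl38 (0.14), Rpl5 (0.40) and Rps3a1 (0.37) in Active. In UVB they included Rpl10 (0.01), Rpl11 (0.37), Rpl22l1 (0.08), Rpl36a (0.35), Rpl39 (0.06), Rpl41 (0.23), Rpl5 (0.07), Rplp1 (0.25), Rps28 (0.04), Rps3a1 (0.02), Rps4x (0.31) and Rps6 (0.35). Summing Rpl34 with its copy turned UVB against Quiescent to -0.64. Library size alone drops the TMM factors, a step that shifts all genes of a library alike. These factors were 0.6601 to 0.7477 in Quiescent, 1.163 to 1.225 in Active and 1.165 to 1.187 in UVB. Why they differ was not tested. DESeq2 called 55 members lower in UVB than in Active. Without the filter, 4 members were above and 5 below the family in Active and 3 below in UVB. Requiring 50 fragments in 3 libraries gave 9 lower in Active. Fitting only the 2 groups gave 8 lower in Active, and 1 above and 2 below the family in UVB.

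Whether the replicate numbers pair the samples is not stated in the labels. Deviations of same-numbered libraries correlated at -0.17 to 0.23 over all genes and, over the members, with either sign, from -0.88 to 0.84. With 3 libraries a group these values do not settle it. With a replicate block, 3 members were lower in Active than in Quiescent, 3 were above and 3 below the family there, 3 above and 2 below in UVB, and 7 lower in UVB than in Active.

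The difference in the family's share of fragments was 1.11 percentage points (Active minus Quiescent) and -0.105 (UVB minus Quiescent) without the 3 collagens in the total, and 0.88 and -0.435 without the 10 most abundant genes. As a share of summed FPKM it was 6.33 and 3.7, and -2.63 for UVB minus Active. Leaving out 1 library at a time, Active minus Quiescent ranged from 2.08 to 2.41, UVB minus Quiescent from 0.568 to 1.18 and UVB minus Active from -1.64 to -1.03. Counts ranged, for Active against Quiescent, over 3 to 9 higher, 2 to 8 lower, 2 to 9 above and 3 to 9 below the family (median -0.01 to 0.07). For UVB against Quiescent they were 16 to 58 lower, 0 to 8 above and 2 to 7 below, and for UVB against Active 1 to 59 lower and 0 to 1 below.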
